A study of Mus musculus with 26 samples.

Results

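Tumor stroma of the mouse tongue was compared with normal tongue stroma across all genes. The comparison used 6 of the 26 RNA-seq libraries of the series, tumor stroma 1, 2 and 3 and normal stroma 1, 2 and 3, chosen by the compartment and histology in their labels. All came from male mice of the inbred strain CBA. Lesions of the tongue arose under 4-NQO, a DNA-damaging chemical used to model oral carcinoma. The tumor libraries came from mice of 32, 32 and 28 weeks, and the normal libraries from mice of 16, 20 and 24 weeks. Whether the mice with normal tissue had received 4-NQO is not stated in the labels, so lesion, age and treatment cannot be told apart. They also do not state the animal behind each library, so p-values measure only the spread between these libraries, some of which may share an animal. Regions were cut by laser from stained paraffin sections where a pathologist had mapped them, and the stroma fraction took in the muscle beneath the mucosa.

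Tongue stroma holds fibroblasts and their matrix, vessels, nerves, immune cells and the striated muscle that fills the organ. Small salivary glands lie between the muscle bundles, and their acini secrete lipase, mucins and antibacterial proteins into the mouth. Around a carcinoma, fibroblasts lay down and crosslink new matrix, neutrophils and macrophages enter, and keratinocytes at the invading edge switch on wound keratins. In bulk tissue, fewer cells of a type and less RNA per cell cannot be told apart.

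Values are log2(TPM + 1), where TPM is a length-scaled relative abundance that keeps no record of sequencing depth. The 6 libraries differed in make-up. The 3 genes Lars2, March6 and D17H6S53E held 1.18%, 11.3% and 0.841% of the TPM in tumor stroma 1, 2 and 3, against 48.4%, 0.681% and 11.9% in normal stroma 1, 2 and 3. Genes listed at 0 numbered 129, 2634 and 102 in the tumor libraries and 1979, 327 and 1589 in the normal ones. Genes that mark the other tissues were present in every library. The list of oral keratinocyte differentiation summed to 1433, 5505 and 267 TPM in tumor stroma 1, 2 and 3 and to 1592, 5101 and 3587 TPM in normal stroma, against 10320 to 21613 TPM in tumor epithelium and 17156 to 36009 TPM in normal epithelium. The list of skeletal muscle contraction summed to 2557, 4837 and 1763 TPM in tumor stroma and to 2700, 13374 and 3749 TPM in normal stroma. The matrix list, which marks the labelled tissue, summed to 1387, 4763 and 3331 TPM in tumor stroma and to 5492, 2544 and 1351 TPM in normal stroma.

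Of 14883 genes tested with limma over all 13 stroma libraries, 12 were higher in tumor stroma at a Benjamini-Hochberg adjusted p under 0.05 (0.0806% of genes) and 0 were lower (277 at an unadjusted p under 0.05, in either direction). The 12 genes split into 2 kinds. S100a8, S100a9, Il1b and Spp1, genes of neutrophils, inflammation and matrix-bound signalling, were high in all 3 tumor libraries. Bpifb1, Lipf, Muc5b, Bpifa2, 2310057J18Rik, Dmbt1, Tff2 and Bpifb2 were high in tumor stroma 1 and 2 and low in tumor stroma 3, and most of them encode secretions of salivary glands. A fit to the 6 libraries alone estimates the spread from the compared groups only and keeps sequencing run as a term. Each of its differences is thus the mean of the differences within the 2 sequencing runs. Tumor stroma 2 and normal stroma 2, each the only library of its group in its run, weigh most in it. This 6-library fit tested 13788 genes and found 105 genes past the same threshold (0.762%), 87 higher (0.631%) and 18 lower (0.131%). Of the 12 genes, 11 also passed there; Muc5b was not tested in it because only 2 of the 6 libraries reached a TPM of 1. Without any test, all 3 tumor libraries lay above all 3 normal ones for 741 genes (4.98%) and below them for 361 (2.43%). A gap of at least 2 log2 units between the groups, with tumor stroma higher, was found for 7 genes (0.047%), S100a8, S100a9, Il1b, Spp1, Krt17, Timp1 and Cyr61. The same gap with tumor stroma lower was found for 2 genes (0.0134%), 1 of them Krt32.

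**Figure D1:**
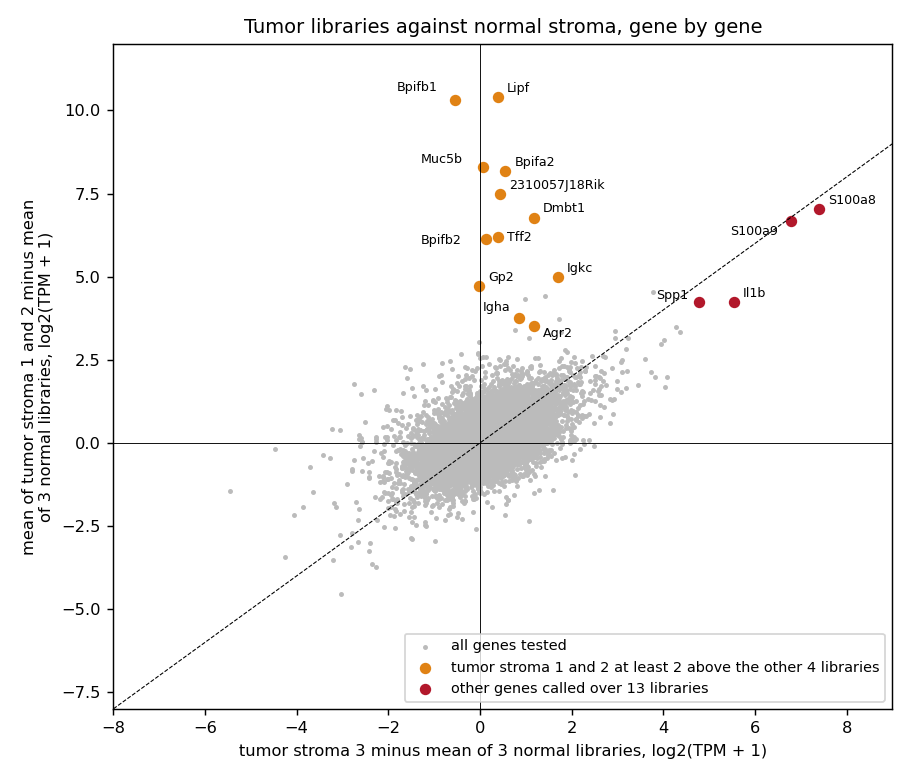
Each point is a gene of the 13-library fit, with the difference of tumor stroma 3 from the mean of the 3 normal libraries on the x axis and the difference of the mean of tumor stroma 1 and 2 from it on the y axis, both in log2(TPM + 1). Bpifb1 and Lipf stand high on the y axis and near 0 on the x axis, while S100a8 and S100a9 lie near the dashed line of equal change.

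Among the gland genes, Bpifb1, a secreted BPI-fold protein of mucosal surfaces, had the highest levels, 11.27 and 11.30 in tumor stroma 1 and 2 and 0.42 in tumor stroma 3, against 0.73, 1.01 and 1.19 in normal stroma. Lipf, a lipase that acts on dietary fat (a lingual enzyme in rodents), was at 10.94, 10.80 and 0.85 in tumor stroma 1, 2 and 3, against 0, 1.11 and 0.31 in normal stroma. Muc5b, a gel-forming mucin of saliva, stood at 8.81, 8.62 and 0.47 in tumor stroma, against 0.30, 0.41 and 0.54 in normal stroma. In each case 2 tumor libraries were far above all others and tumor stroma 3 lay within or below the range of the normal libraries. The fitted differences were 7.10 ± 1.24 (SE) for Bpifb1, 7.25 ± 1.16 for Lipf and 5.79 ± 1.01 for Muc5b (limma adjusted p = 0.000517, 9.19e-05 and 0.000517). Each averages a library without the transcripts and 2 libraries rich in them.

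The same split held for the antibacterial and repair proteins. Bpifa2, parotid secretory protein, was at 9.46, 9.74 and 1.98 in tumor stroma, against 0, 1.83 and 2.45 in normal stroma. Dmbt1, a scavenger protein that binds bacteria in saliva, was at 7.20, 6.61 and 1.31 in tumor stroma, against 0, 0.29 and 0.10 in normal stroma, so that its tumor and normal libraries did not overlap. Tff2, a mucus-associated trefoil peptide, was at 7.01, 6.94 and 1.18 in tumor stroma, against 0.64, 1.72 and 0 in normal stroma. Bpifb2, another BPI-fold protein, was at 7.09, 6.53 and 0.81 in tumor stroma, against 0, 0.58 and 1.47 in normal stroma, and 2310057J18Rik at 8.45, 8.50 and 1.44 in tumor stroma, against 0, 2.08 and 0.89 in normal stroma. The 5 differences ran from 4.27 ± 0.95 (Bpifb2, limma adjusted p = 0.0322) to 5.52 ± 1.15 (Bpifa2, limma adjusted p = 0.0137). Gp2, a membrane protein of secretory granules, showed the pattern at a lower level, with 5.42, 5.34 and 0.66 in tumor stroma against 0.14, 0.80 and 1.09 in normal stroma, but passed only in the 6-library fit (3.49 ± 0.72, limma adjusted p = 0.00544).

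By a rule of at least 2 log2 units above tumor stroma 3 and every normal library, tumor stroma 1 and 2 were high for 12 genes (0.0806% of those tested). These are the 8 called gland genes, Gp2, Agr2, Igkc and Igha. Agr2, a disulfide isomerase of mucus-secreting cells, was at 3.95, 3.99 and 1.65 in tumor stroma, against 1.40, 0 and 0 in normal stroma. Igkc, the kappa light chain of antibodies, was at 5.72, 4.26 and 1.69 in tumor stroma and listed at 0 in all 3 normal libraries. Igha, the heavy chain of the IgA secreted by glands, was at 4.56, 3.26 and 1.02 in tumor stroma, against 0.39, 0.11 and 0 in normal stroma. The 2 antibody genes were also high in libraries without gland transcripts: Igkc reached 6.15 in hyperplasia stroma 2, 6.49 in dysplasia stroma 1 and 7.27 in dysplasia stroma 4, where Lipf was at 1.70, 0 and 0.69.

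The salivary acinar list as a whole summed to 6136, 6046 and 27.5 TPM in tumor stroma 1, 2 and 3, against 37.7, 72.0 and 79.8 TPM in normal stroma. Of its 16 tested genes, 7 were higher in the 13-library fit and 0 lower, with a median difference of 2.71 beside -0.05 for all genes tested. Of the 16 differences 15 were positive, but those of Lpo, Wfdc12 and Azgp1 were small (0.23, 0.25 and 0.31), and Wfdc2 had -1.47. Members too low to test, such as Pip and Tff3, are not in the median. Tumor stroma 1 and 2 helped some members, such as Muc5b, to pass the filter on TPM. Of the salivary duct and glandular epithelium list, 0 of 24 passed in the 13-library fit (median 0.55). In the 6-library fit 2 of 20 were higher, Agr2 and Aqp5, beside 0.631% of all genes, and 0 lower. For 7 of the 24, all 3 tumor libraries lay above all normal ones, beside 4.98% of all genes. Aqp5, the water channel of secreting cells, was at 3.68, 4.10 and 2.30 in tumor stroma, against 1.08, 0.54 and 0 in normal stroma. Its difference was 2.76 ± 0.72 in the 13-library fit (limma adjusted p = 0.151) and 3.00 ± 0.58 in the 6-library fit (limma adjusted p = 0.00195). Tumor epithelium 1, which has the age and the sequencing run of tumor stroma 1, was also rich in gland transcripts, with Bpifb1 at 10.23, Lipf at 10.15 and Muc5b at 8.56. Tumor epithelium 2 and 3 had Bpifb1 at 0.99 and 0.75. Without tumor stroma 1 and 2, Bpifb1 differed from normal stroma by -0.52. Without tumor stroma 2 alone, none of the 7 called gland genes still tested passed, with adjusted p between 0.260 (Lipf) and 0.905. None of the 8 calls passed with a pseudocount of 0.1, with quantile normalization, median centring or either rescaling, with library weights or without the trend, and with robust moderation only Dmbt1 did. Over all alternatives in which they were tested, Dmbt1 passed in 13 of 22, Lipf in 12 of 21, Muc5b in 10 of 18, Bpifb1 in 10 of 22, Bpifa2 in 8 of 23, 2310057J18Rik in 7 of 22, Tff2 in 6 of 22 and Bpifb2 in 5 of 22. The part of gland tissue in the cut regions was not tested.

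**Figure D2:**
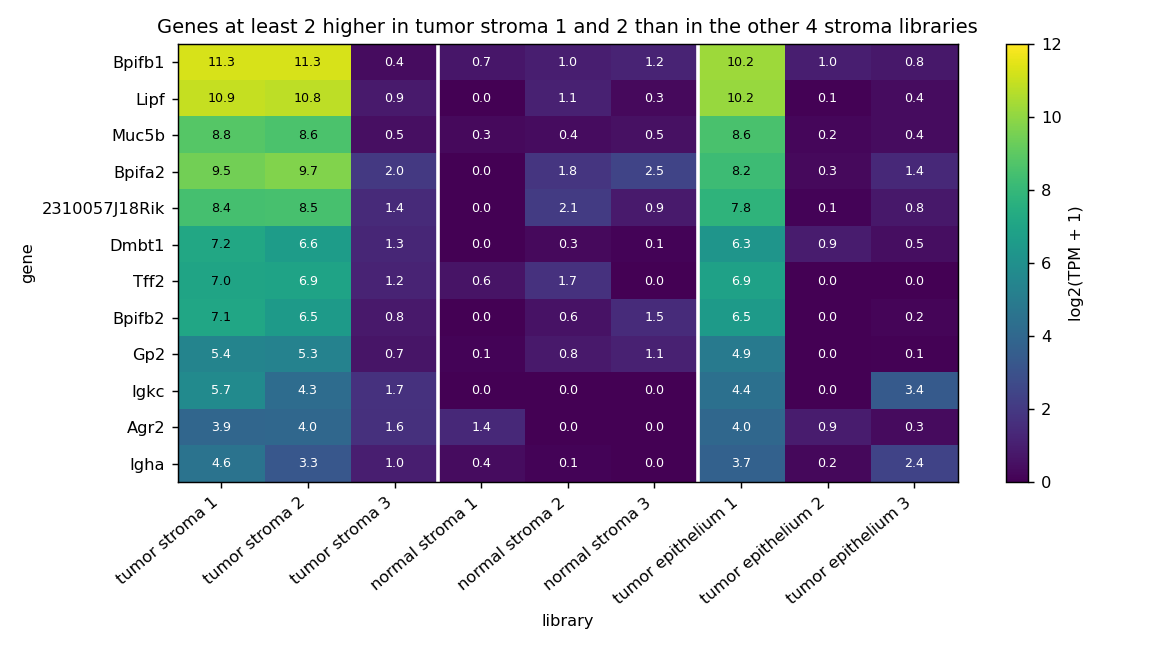
Log2(TPM + 1) of the 12 genes that were at least 2 higher in tumor stroma 1 and 2 than in the other 4 stroma libraries compared, with the 3 tumor epithelium libraries at the right. Tumor epithelium 1 carries the same transcripts, with Bpifb1 at 10.23, and tumor stroma 3 does not, with Bpifb1 at 0.42.

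Bpifb2, Bpifa2 and Bpifb1 lie in this order on the plus strand of chromosome 2 in GRCm38, at 153875045 to 153895270, 154008265 to 154016079 and 154190818 to 154220369. The 150 bases before their RefSeq starts (GRCm38.p6), written 5′ to 3′ along the gene's strand, are shown because the 3 genes move together across libraries, at chr2:153874895-153875044, chr2:154008126-154008275 and chr2:154190668-154190817.

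Bpifb2: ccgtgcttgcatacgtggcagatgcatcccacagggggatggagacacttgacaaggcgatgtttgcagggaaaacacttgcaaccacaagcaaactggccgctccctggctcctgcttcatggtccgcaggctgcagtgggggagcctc
Bpifa2: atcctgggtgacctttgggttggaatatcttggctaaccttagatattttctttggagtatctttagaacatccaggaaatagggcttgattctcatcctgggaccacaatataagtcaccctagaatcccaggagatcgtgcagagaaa
Bpifb1: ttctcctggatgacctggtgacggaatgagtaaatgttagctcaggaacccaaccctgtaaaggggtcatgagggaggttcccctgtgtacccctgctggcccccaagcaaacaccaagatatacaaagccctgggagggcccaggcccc

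None of these 3 windows holds the letters TGANTCA (the AP-1 motif), TTNNGNAA (a C/EBP consensus), CAGCTG (an E-box) or TATAAA on either strand. Among 32851 RefSeq windows of the same 150 bases, 4.24%, 22.7%, 8.39% and 7.57% hold the 4 motifs in that order. Of the 12 called genes, 9 matched the table of promoters.

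The other 4 called genes were high in all 3 tumor libraries. S100a8 and S100a9 encode the subunits of calprotectin, a calcium-binding protein abundant in neutrophils that stressed keratinocytes also make. S100a8 was at 6.32, 8.06 and 7.57 in tumor stroma 1, 2 and 3, against 0, 0 and 0.51 in normal stroma. S100a9 was at 6.21, 8.97 and 7.70 in tumor stroma, against 0, 1.21 and 1.51 in normal stroma. For both genes the lowest tumor library lay more than 4 log2 units above the highest normal one. The fitted differences were 7.30 ± 0.98 and 6.63 ± 1.00 (limma adjusted p = 1.66e-06 and 2.41e-05). S100a8 passed in 23 of 23 alternatives and S100a9 in 21, the exceptions being a pseudocount of 0.1 (adjusted p = 0.43) and tumor stroma 3 as the only tumor library (adjusted p = 0.092).

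Il1b encodes interleukin-1 beta, a cytokine of activated macrophages and neutrophils, and Spp1 encodes osteopontin, a secreted matrix protein of macrophages and tumor cells. Il1b was at 3.92, 6.17 and 6.35 in tumor stroma, against 0.36, 1.39 and 0.67 in normal stroma. Spp1 was at 4.75, 6.46 and 6.16 in tumor stroma, against 0.39, 2.37 and 1.37 in normal stroma. Neither gene overlapped between the groups, and tumor stroma 1 was the lowest tumor library for both. The fitted differences were 4.52 ± 1.01 for Il1b and 4.33 ± 0.99 for Spp1 (limma adjusted p = 0.0322 and 0.0465). These 2 genes passed in 8 and 7 of 23 alternatives. Leaving out any single library other than tumor stroma 1 ended the call of Il1b, and leaving out tumor stroma 2 or 3 or normal stroma 1 or 3 ended that of Spp1. Without normal stroma 1, the library in which 3 genes held 48.4% of the TPM, the differences were 7.15 for S100a8, 6.24 for S100a9, 4.38 for Il1b and 3.91 for Spp1, of which the first 2 still passed and Il1b and Spp1 did not (limma adjusted p = 0.0821 and 0.269). In the 6-library fit the differences of Il1b and Spp1 were 4.70 ± 0.64 and 4.33 ± 0.64 (limma adjusted p = 7.4e-06 and 3.33e-05).

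The 150 bases before the RefSeq starts of these 4 genes are shown because the 4 transcripts are high in the same libraries. They lie at chr3:90668921-90669070 on the plus strand for S100a8, chr3:90695722-90695871 on the minus strand for S100a9, chr2:129371140-129371289 on the minus strand for Il1b and chr5:104434961-104435110 on the plus strand for Spp1, in GRCm38.p6. Capitals mark matches to the 4 motifs named above.

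S100a8: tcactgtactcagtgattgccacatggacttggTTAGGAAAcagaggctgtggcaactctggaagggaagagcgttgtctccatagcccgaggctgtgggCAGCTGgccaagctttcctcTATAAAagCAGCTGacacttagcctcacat
S100a9: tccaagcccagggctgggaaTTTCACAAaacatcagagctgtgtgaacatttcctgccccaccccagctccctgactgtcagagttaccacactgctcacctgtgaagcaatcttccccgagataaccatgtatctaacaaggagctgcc
Il1b: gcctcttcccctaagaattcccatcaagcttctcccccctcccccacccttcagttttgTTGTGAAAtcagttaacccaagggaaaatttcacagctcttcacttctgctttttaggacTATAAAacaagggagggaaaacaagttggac
Spp1: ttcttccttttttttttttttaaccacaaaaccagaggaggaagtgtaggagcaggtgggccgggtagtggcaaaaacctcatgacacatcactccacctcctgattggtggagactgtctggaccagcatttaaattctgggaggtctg

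The S100a8 window holds 1 C/EBP match, 2 E-boxes and 1 TATAAA, the S100a9 window 1 C/EBP match on the other strand, and the Il1b window 1 C/EBP match and 1 TATAAA. The Spp1 window holds none of the 4, and no window of the 4 holds the AP-1 letters. These are letter matches and not measured sites.

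The stroma of the earlier lesions, given here without a test, had lower levels in most libraries. S100a8 ran from 0 to 0.51 in normal stroma, 0 to 2.99 in hyperplasia stroma, 0.97 to 3.87 in dysplasia stroma and 6.32 to 8.06 in tumor stroma. Il1b ran from 0.36 to 1.39 in normal, 0 to 3.50 in hyperplasia, 0 to 4.43 in dysplasia and 3.92 to 6.35 in tumor stroma, so its highest dysplasia library lay above its lowest tumor library. S100a9 and Spp1 showed no such overlap between dysplasia and tumor stroma. In hyperplasia stroma 1 and dysplasia stroma 2, Lars2, March6 and D17H6S53E held 87.0% and 55.0% of the TPM. These libraries had 9382 and 4637 genes listed at 0, so low values in them are uncertain.

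**Figure D3:**
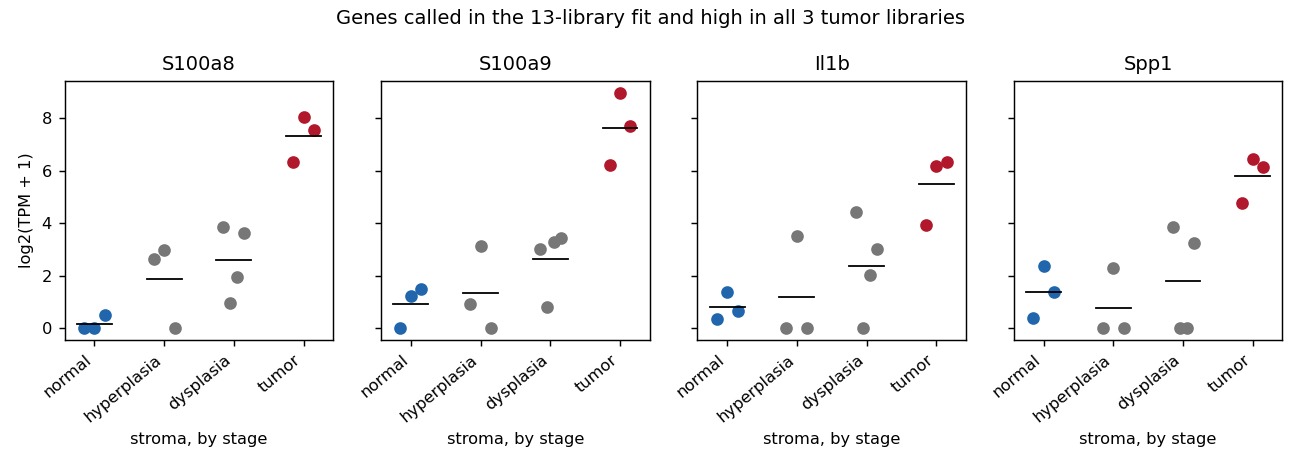
Log2(TPM + 1) of S100a8, S100a9, Il1b and Spp1 in the 13 stroma libraries by stage, each point a library and each line a group mean. The 3 tumor libraries of S100a8 sit between 6.32 and 8.06, above all 10 other libraries.

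The epithelium cut beside the stroma carried the calprotectin transcripts too. S100a8 was at 6.53 to 9.83 in tumor epithelium, against 0.48 to 1.76 in normal epithelium, and at 7.09 to 11.03 in hyperplasia epithelium, where hyperplasia stroma had at most 2.99. The stress keratin and wound response list summed to 619, 3076 and 465 TPM in tumor stroma 1, 2 and 3, against 63.9, 128 and 88.6 TPM in normal stroma, and to 2435 to 4461 TPM in tumor epithelium. The basal keratinocyte list summed to 508, 2751 and 1152 TPM in tumor stroma, against 2199, 545 and 933 TPM in normal stroma. The part of epithelial RNA in the stromal level was not tested. The tumor change in stroma minus that in epithelium was -0.23 ± 2.07 for S100a8 and 2.05 ± 1.31 for Il1b. Over all genes this difference between compartments passed for 0 of 15499 (limma, 88 at an unadjusted p under 0.05). With SEs of this size the result does not show that the compartments changed alike.

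Both sequencing runs gave the same direction for the 12 called genes. Run 1 held tumor stroma 1 and 3 and normal stroma 2, and run 2 held tumor stroma 2 and normal stroma 1 and 3. For S100a8 the difference was 6.95 within run 1 and 7.81 within run 2, for S100a9 5.74 and 8.22, for Il1b 3.74 and 5.65 and for Spp1 3.09 and 5.58. The gland genes had larger differences within run 2, where the single tumor library was rich in them. For Bpifb1 they were 4.84 within run 1 and 10.34 within run 2. Within run 1, tumor stroma 3 had Bpifb1 at 0.42 against 1.01 in normal stroma 2, so that difference came from tumor stroma 1 alone. With age as a further term, which takes up part of the same contrast, S100a8 kept 7.05 (limma adjusted p = 4.8e-05), and Il1b had 3.52 (adjusted p = 0.42).

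The 6-library fit extended the neutrophil and cytokine genes. Of the 9 neutrophil genes tested in it, 6 were higher and 0 lower, beside 0.631% and 0.131% of all genes. Their median was 2.61 beside 0.27 for all genes, and in the 13-library fit 2 of 11 were higher. Of this list 13 genes were in the data, and those too low to test are in neither the count nor the median. S100a8 reached a TPM of 1 in tumor stroma only, so it entered the 6-library fit through the group where it is high. Csf3r, the receptor for the growth factor of neutrophils, was at 3.41, 5.88 and 5.42 in tumor stroma, against 1.49, 1.03 and 0.95 in normal stroma (6-library fit, 4.02 ± 0.63, limma adjusted p = 5.85e-05). Il1r2, a decoy receptor for interleukin-1, was at 2.92, 5.45 and 4.20 in tumor stroma, against 2.10, 1.31 and 2.28 in normal stroma, and Clec4d, a lectin receptor of neutrophils and monocytes, at 2.32, 2.76 and 4.15 in tumor stroma, against 0.23, 1.00 and 0 in normal stroma. All 3 genes were without overlap between the groups, but they were picked by their calls in these same libraries. All 3 tumor libraries lay above all normal ones for 7 of the 11 neutrophil genes of the 13-library fit, beside 4.98% of all genes. S100a8, S100a9 and Ltf are the other 3 called. Ltf, lactoferrin, an iron-binding protein of neutrophil granules and of saliva, is also on the salivary acinar list, and its difference of 2.61 (limma adjusted p = 0.042) is the median just given. It was at 3.71, 5.13 and 1.81 in tumor stroma, against 0, 2.24 and 0.86 in normal stroma, so tumor stroma 3 lay below normal stroma 2. The neutrophil granule genes Mpo and Elane did not pass, with differences of -0.24 and -0.35 in the 13-library fit, and Cxcr2, the main chemokine receptor of neutrophils, did not either (0.50).

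In the 13-library fit 1 of 27 chemokine and cytokine genes was higher. Of the 21 tested in the 6-library fit, 6 were higher, beside 0.631% of all genes, and 0 lower (median 1.24). Cxcl14, a chemokine that epithelia and fibroblasts make, was at 4.90, 6.44 and 6.60 in tumor stroma, against 3.28, 2.31 and 2.16 in normal stroma (3.58 ± 0.64, limma adjusted p = 0.000617). Cxcl5, a neutrophil attractant, was at 3.03, 4.86 and 6.06 in tumor stroma, against 2.43, 1.96 and 1.53 in normal stroma. Il6, a cytokine of activated fibroblasts and myeloid cells, was at 1.42, 2.44 and 3.31 in tumor stroma, against 0.82, 0.14 and 0 in normal stroma. Both were higher in all 3 tumor libraries, as for 4.98% of all genes, tumor stroma 3 being the highest. Il6 reached a TPM of 1 in tumor stroma only, so it entered this fit through the group where it is high. Cxcl13, the B cell attractant, and Il1rn, the antagonist of interleukin-1, also passed, with differences of 2.54 ± 0.59 and 2.41 ± 0.61.

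Macrophage genes mostly had positive differences that did not pass. Of 22 macrophage and monocyte genes, 0 passed in the 13-library fit. Of their differences 21 were positive (median 0.97), beside 6914 of 14883 for all genes tested. For 11 of the 22, all 3 tumor libraries lay above all normal ones, beside 4.98% of all genes. In the 6-library fit only Tyrobp, a signalling adaptor of myeloid cells, passed, with 4.05, 6.60 and 5.81 in tumor stroma against 3.99, 3.22 and 2.32 in normal stroma. Among the genes of alternatively activated macrophages the members differed in direction in the 6-library fit. Folr2, a folate receptor of resident macrophages, was lower, at 0.48, 0 and 1.62 in tumor stroma against 2.49, 3.58 and 3.27 in normal stroma (-2.71 ± 0.57, limma adjusted p = 0.00595). Il4ra, the interleukin-4 receptor chain, was higher, at 3.36, 5.05 and 5.26 in tumor stroma against 0.99, 2.16 and 1.86 in normal stroma (2.89 ± 0.63, limma adjusted p = 0.00902). The call of Tyrobp held in 1 of the 6 fits that left out a library of the 6.

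The study also stained sections for immune markers, and of the 8 transcripts 7 could be tested in the 13-library fit and 6 in the 6-library fit, and 0 passed. Ptprc, whose B220 form was stained on B cells, was at 4.29, 5.94 and 5.70 in tumor stroma, against 3.99, 3.55 and 3.96 in normal stroma (1.40 ± 0.98). This value is for the whole gene and does not measure that form. Of 17 B and plasma cell genes tested in the 13-library fit, 8 had a positive difference (median -0.05) and 0 passed. Cd4 was at 2.80, 3.00 and 3.24 in tumor stroma, against 1.11, 2.29 and 1.06 in normal stroma (1.27 ± 0.92), and Cd3e at 2.27, 2.44 and 2.61 in tumor stroma, against 1.50, 1.48 and 1.41 in normal stroma (0.73 ± 0.83). For Ptprc, Cd4 and Cd3e all tumor libraries lay above all normal ones, as for 4.98% of all genes. Cd163, the marker of alternatively activated macrophages, was at 1.95, 2.91 and 1.75 in tumor stroma, against 2.89, 3.28 and 2.20 in normal stroma (-0.73 ± 0.96), and Adgre1, which encodes F4/80, at 2.01, 3.45 and 1.78 in tumor stroma, against 2.04, 1.72 and 0.46 in normal stroma (0.82 ± 0.96), both with overlap. Cd8a and Foxp3 differed by 0.31 ± 0.87 and 0.54 ± 0.64. Nos2, which encodes iNOS, had at most 0.86 in any of the 6 libraries and was too low to test.

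The wound keratins Krt17 and Krt16 were higher in all 3 tumor stroma libraries than in any normal one, Krt16 by only 0.64 in tumor stroma 3. Krt17, a keratin of wounded and transformed epithelium, was at 7.93, 10.22 and 8.30 in tumor stroma, against 4.55, 4.74 and 4.27 in normal stroma (6-library fit, 4.59 ± 0.72, limma adjusted p = 7.55e-05). Krt16, another wound keratin, was at 8.20, 10.66 and 6.44 in tumor stroma, against 3.70, 5.80 and 5.56 in normal stroma (3.78 ± 0.80, limma adjusted p = 0.0072). With each of the 6 libraries left out in turn, the call of Krt17 held in all 6 fits and that of Krt16 in 3. In the 13-library fit both missed the threshold (adjusted p = 0.0945 and 0.497), and of the 8 genes of the stress keratin and wound response list 0 passed, with all 8 differences positive (median 2.04). Further keratins were lower. Krt76, a keratin of the differentiated oral surface, was at 1.96, 2.33 and 2.46 in tumor stroma, against 4.39, 5.87 and 6.72 in normal stroma (-3.44 ± 0.64, limma adjusted p = 0.00114). Krt36 and Krt32, hair-type keratins, were lower by the same fit, with -3.82 ± 0.71 and -2.94 ± 0.58. These are genes of epithelium, and Krt17 was at 9.29 to 10.43 in tumor epithelium and 5.55 to 7.32 in normal epithelium; the part of keratinocyte RNA in the stromal levels was not tested.

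Matrix genes differed by member. Of the 36 genes of the matrix and activated fibroblast list, 0 passed in the 13-library fit (median 0.66). In the 6-library fit 5 were higher, beside 0.631% of all genes, and 0 lower. Timp1, an inhibitor of matrix metalloproteinases, was at 3.75, 4.43 and 5.12 in tumor stroma, against 1.56, 0.74 and 0 in normal stroma (6-library fit, 3.67 ± 0.61, limma adjusted p = 0.00018). Col12a1, a collagen that binds to fibril surfaces, was at 5.77, 7.84 and 7.79 in tumor stroma, against 4.90, 3.12 and 3.53 in normal stroma (3.65 ± 0.68, limma adjusted p = 0.00114). Lox, the enzyme that crosslinks collagen, Thbs1, an adhesive matrix glycoprotein, and Col8a1, a short-chain collagen, were also higher, by 2.80 ± 0.61, 2.97 ± 0.64 and 2.57 ± 0.62. The abundant fibrillar collagens did not pass in either fit, with differences of 0.43 for Col1a1, -0.34 for Col1a2 and -0.94 for Col3a1 in the 13-library fit. Cyr61, a matricellular protein induced by growth factors, was on no list and was at 4.38, 6.43 and 4.98 in tumor stroma, against 2.23, 1.53 and 2.34 in normal stroma (6-library fit, 3.65 ± 0.61, limma adjusted p = 0.000189).

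Most genes of resting fibroblasts had negative differences, few of which passed. Of 22 tested, 0 passed in the 13-library fit (median -0.79, 4 positive). In the 6-library fit 2 were lower and 1 higher, beside 0.131% and 0.631% of all genes. Igfbp6, a binding protein for insulin-like growth factors, was at 1.92, 1.29 and 2.90 in tumor stroma, against 6.52, 4.65 and 4.56 in normal stroma (6-library fit, -3.25 ± 0.65, limma adjusted p = 0.00279). Tnxb, tenascin-X, a matrix protein of connective tissue sheaths, was at 2.38, 4.41 and 3.71 in tumor stroma, against 7.63, 6.19 and 5.74 in normal stroma (-2.71 ± 0.67, limma adjusted p = 0.0298). Fmod, fibromodulin, a regulator of collagen fibrils, was the list member that was higher (2.43). Col14a1, another collagen of fibril surfaces, was on no list and was lower too, at 1.78, 3.19 and 2.18 in tumor stroma against 5.64, 5.73 and 4.37 in normal stroma (-2.78 ± 0.63, limma adjusted p = 0.0142).

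Most Schwann cell and nerve genes had negative differences. Of 17 Schwann cell and nerve genes, 0 passed in the 13-library fit and 15 were negative (median -0.85). For 7 of the 17, all 3 tumor libraries lay below all normal ones, beside 2.43% of all genes. Mbp, myelin basic protein, was at 2.70, 4.16 and 3.57 in tumor stroma, against 5.57, 5.19 and 5.52 in normal stroma, and passed in neither fit.

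Muscle genes differed by member. Of 34 skeletal muscle contraction genes 0 passed in the 13-library fit, with a median of -1.03 and 9 positive. In the 6-library fit 2 of the 34 were higher, beside 0.631% of all genes, and 0 lower, with a median of -0.90 and 9 positive. Normal stroma 2, with 13374 TPM of this list, was far richer in muscle than the other 5 libraries. It was also the only normal library of its sequencing run, so the 6-library fit leans on it more than on the other normal libraries. Myh4, the myosin of fast glycolytic fibres, was at 6.60, 7.06 and 6.18 in tumor stroma, against 7.86, 10.19 and 8.42 in normal stroma, and passed in neither fit. Actn3, the alpha-actinin of fast fibres, was higher, at 3.27, 4.76 and 3.80 in tumor stroma, against 0, 0.98 and 1.59 in normal stroma (6-library fit, 3.26 ± 0.60, limma adjusted p = 0.00103). The troponins of slow and embryonic muscle Tnni1, Tnnt2 and Tnnc1 were higher by 3.25 ± 0.61, 2.92 ± 0.61 and 2.51 ± 0.60 in the same fit. Actn3 is 1 of the 2 higher genes of the list, so not all 3 troponins are on it. With each of the 6 libraries left out in turn, the calls of Tnni1, Tnnt2 and Tnnc1 held in 5, 4 and 2 fits.

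In the 13-library fit 0 of 15 muscle regeneration genes passed. Of the 14 tested in the 6-library fit, 3 were higher, beside 0.631% of all genes, and 0 lower, with a median of 1.05. Myh3, embryonic myosin, was at 1.81, 3.31 and 2.03 in tumor stroma, against 0, 0.29 and 0.45 in normal stroma (2.36 ± 0.53, limma adjusted p = 0.0134). Mymk, the fusion protein of myoblasts, was at 1.93, 3.11 and 3.17 in tumor stroma, against 0, 0.46 and 1.21 in normal stroma. Chrng, the fetal subunit of the acetylcholine receptor, was at 1.80, 2.89 and 2.24 in tumor stroma, against 0.51, 0.58 and 0 in normal stroma. The 3 tumor libraries were above all normal ones for each of the 3 genes, as for 4.98% of all genes. Myh3 and Chrng reached a TPM of 1 in tumor stroma only, so they entered this fit through the group where they are high. With each of the 6 libraries left out in turn, the call of Myh3 held in 3 fits and those of Mymk and Chrng in 2. Myh3 and Chrng were not tested without a tumor library. Myog and Myod1, the factors that drive muscle differentiation, had positive differences without overlap but did not pass (2.00 and 1.82 in the 13-library fit).

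**Figure D4:**
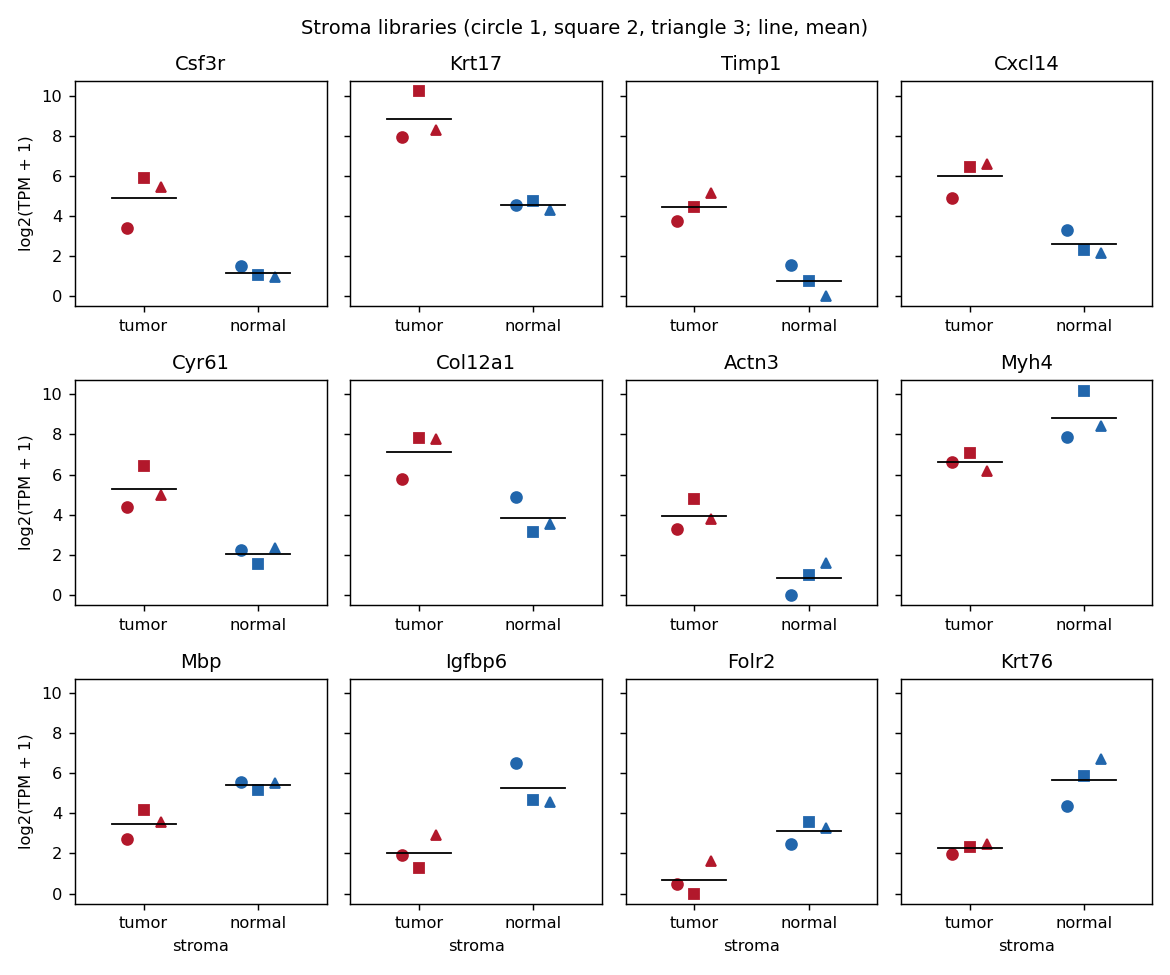
Log2(TPM + 1) of 12 genes in tumor stroma (red, left) and normal stroma (blue, right), each point a library and each line a group mean. Krt17, Csf3r and Timp1 are above normal stroma in all 3 tumor libraries, and Mbp is below it, at 2.70 to 4.16 in tumor stroma against 5.19 to 5.57 in normal stroma.

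Oxidative phosphorylation genes of the nucleus had a median of -0.91, with 1 of 24 positive and 0 called in either fit. Their summed level was 913, 2468 and 1085 TPM in tumor stroma, against 1667, 3707 and 1244 TPM in normal stroma, the highest being normal stroma 2, the library richest in muscle. Cell cycle genes had a median of 0.40 (0 of 35 called). T and NK cell genes had a median of 0.18 (0 of 23), endothelial genes -0.20 (0 of 25) and type I interferon response genes -0.02 (0 of 18). With 3 libraries a group this does not show that the lists were alike.

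**Figure D5:**
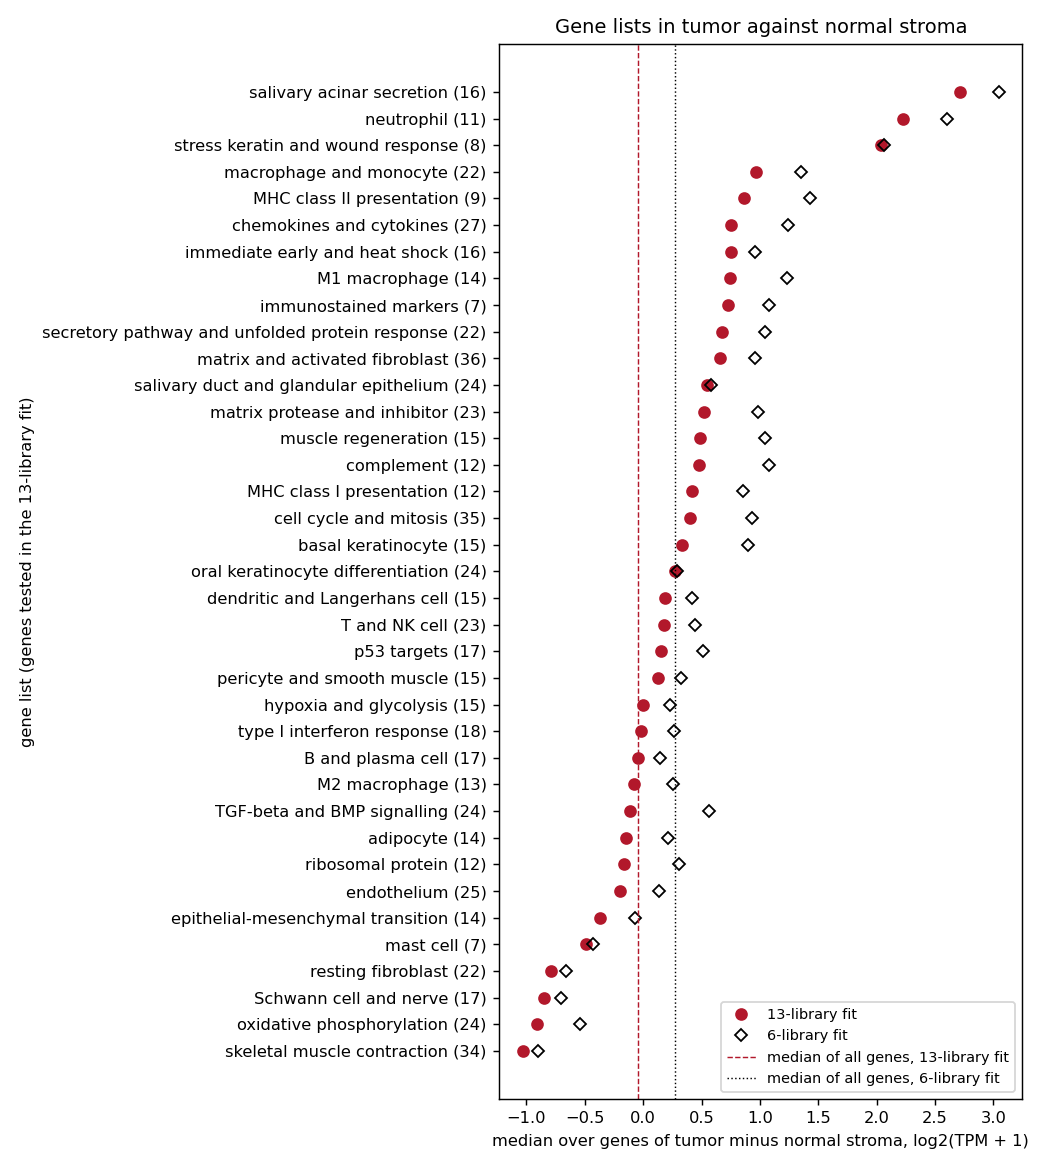
Median over the genes of each list of the difference between tumor and normal stroma on the log2(TPM + 1) scale, in the 13-library fit (filled) and the 6-library fit (open), with the medians of all genes as vertical lines. The salivary acinar list is highest at 2.71 in the 13-library fit and skeletal muscle contraction lowest at -1.03.

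S100a8, S100a9, Il1b, Csf3r, Krt17 and Cyr61 passed in the 6-library fit and in each alternative of it run on the same rows in which they were tested (15 for S100a8 and 18 for each of the others). Timp1, Cxcl14 and Krt76 also passed with each of the 6 libraries left out in turn. Of the 105 calls of the 6-library fit, 86 did not pass, or were not tested, in at least 2 of these 6 repeats. The number of calls fell to 10 with quantile normalization, to 14 with median centring and to 18 after rescaling without Lars2, March6 and D17H6S53E. Quantile normalization moved the median difference over all genes to 0.00, against 0.27 as deposited.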

How the data were processed

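The authors deposited log2(TPM + 1) values, a scale read from the values themselves. The submitters' processing notes name the genome build GRCm38.p6 and, with no role for each, Salmon 0.9.1, HTSeq 0.10.0, STAR 2.5.1b, SAMtools 1.6, Trimmomatic 0.36, FastQC 0.11.5 and bcl2fastq 2.20. TPM keeps no depth, so no counting interval was computed, and a log2 difference with a pseudocount of 1 understates the change of low genes. Of 18676 rows, which pair mouse genes with human orthologs, 16397 were used, those whose identifier stands in a single row, and 0 columns belonged to no sample. A table of gene names held 16391 of their identifiers. Libraries were grouped by their labels.

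Genes that reached a TPM of 1 in 3 or more libraries were tested with limma 3.58.1 in R 4.3.3, on all 13 stroma libraries with stage and sequencing run as terms and a trended empirical Bayes prior. Benjamini-Hochberg adjustment ran over all genes tested, with a threshold of 0.05. Prior degrees of freedom were 71.8 beside 8 residual ones (49.4 beside 3 in the 6-library fit), so SEs rest mostly on a spread pooled over genes and can be too small for genes whose own libraries differ widely, such as the gland genes. The fit was tested on simulated data, in which it missed most of the changes put in, so that a gene that did not pass is not shown to be unchanged. The groups, 38 gene lists and tests were chosen with earlier results of these data known. Genes were named by rank of p-value, as the leading 2 of each list, as gland genes or as immunostained markers, and the other genes that passed only in the 6-library fit were named after their values were seen, as were Mpo, Elane, Cxcr2, Myog, Myod1 and the fibrillar collagens. Alternatives changed the pseudocount, filter, scaling, covariates, moderation and libraries. Coordinates came from GENCODE by gene identifier and promoter sequences from RefSeq, both on GRCm38. Human leukoplakia samples and the immunostaining were not analysed here. The values of 1 gene are not reported here.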

Additional observations from a re-analysis of the deposited data

Results flagged for a closer look

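Dysplasia stroma 4 stood apart from the other 3 dysplasia stroma libraries for 2 gland genes, with Lipf at 0.69 and 2310057J18Rik at 0.70 where the others were listed at 0. Dysplasia stroma 2 stood apart for S100a9, at 0.80 where the others were at 3.02 to 3.43. In dysplasia stroma 2, Lars2, March6 and D17H6S53E held 55.0% of the TPM and 4637 genes were listed at 0. Dysplasia stroma 4 had 52 genes listed at 0, against 1614 in dysplasia stroma 1 and 3292 in dysplasia stroma 3. A group of this size is marked by chance about 1 in 20 times. That rate does not hold for Lipf and 2310057J18Rik, because with the other 3 libraries at 0 any value above 0 is marked.

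Rows left out of the tests, because their identifier stands in several rows, also carried the gland pattern. A row of Amy2, an amylase, paired with the human gene AMY1C, was at 9.44, 9.30 and 2.48 in tumor stroma 1, 2 and 3, against 0.31, 2.68 and 1.20 in normal stroma. Of 2 rows of Chil4, a chitinase-like protein, both paired with CHIA, the first was at 4.56, 6.15 and 1.41 in tumor stroma, against 0, 0.18 and 2.29 in normal stroma. The second was at 6.40, 7.83 and 1.94 in tumor stroma, against 2.96, 1.80 and 3.25 in normal stroma. These rows may share reads with close relatives, so the level of each gene is uncertain.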

How the results depend on the processing

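The 12 calls of the 13-library fit became 1 with a pseudocount of 0.1, 6 without a filter, 4 with a stricter one, 7 with quantile normalization, 2 with median centring, 2 after rescaling without 3 genes (2 also without the gland lists), 5 without the run term, 7 with age as covariate, 105 in the 6 libraries alone, 1 without both gland-rich tumor libraries, 350 with library weights, 2 without the trend and 5 with robust moderation. Leaving out a replicate gave 2 (without tumor stroma 2) to 15 calls. Without hyperplasia stroma 1 and dysplasia stroma 2 there were 11, among them Csf3r, Cxcl14 and Cyr61. S100a8 was called in all 23 alternatives. The 105 calls of the 6-library fit became 29 with a pseudocount of 0.1, 10 without a filter, 64 with a stricter one, 10 with quantile normalization, 14 with median centring, 18 after rescaling without 3 genes (18 also without the gland lists), 52 without the run term, 246 with library weights, 64 without the trend and 181 with robust moderation, and 27 (without tumor stroma 1) to 574 (without normal stroma 2) when a replicate was left out; these alternatives were added after seeing the data. Without tumor stroma 2 its calls were 11 higher and 30 lower. The difference between compartments had 0 calls except 26 with library weights. The causes were not tested.

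With a replicate block the 13-library fit had 13 calls, Krt17 being added, and the 6-library fit 73. Deviations of same-numbered tumor and normal libraries correlated at -0.43, -0.17 and 0.03, and not every library correlated best with its own number. The libraries also differ in make-up, so these values cannot show whether same-numbered libraries share an animal.

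Differences of the 68 named genes kept their sign except in 21 cases. Without both gland-rich libraries these were 2310057J18Rik (-0.25), Bpifa2 (-0.51), Bpifb1 (-0.52), Adgre1 (-0.40), Mpo (0.34) and Elane (0.42). With age as covariate they were Tyrobp (-1.03), Adgre1 (-0.22), Mpo (0.46), Cxcr2 (-0.21) and Col1a1 (-0.40), and with library weights Mpo (0.28) and Elane (0.21). With a replicate left out, 6 genes took both signs, over ranges of -0.038 (without tumor stroma 2) to 2.68 for Tyrobp, -0.28 to 1.21 for Adgre1, -0.13 to 0.59 for Cd8a, -0.56 to 0.17 for Mpo, -0.29 to 0.95 for Col1a1 and -1.22 to 0.19 for Col1a2. None of these values passed the test.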
